A study of Mus musculus with 2 samples.

Results

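Arg1, Nos2, Slc7a2 and Ass1 are 4 genes of arginine metabolism among the 2000 genes with deposited values, taken by name and described here across the cell types of mouse pancreatic tumors. The study compared Ahr cKO mice, labelled C57/BL6 Ahr fl/fl Lys M and described as LysM-CRE cKO, with Ahr fl/fl mice of the same background that lack the Cre. Ahr encodes the aryl hydrocarbon receptor, a ligand-activated transcription factor. Tumors grew for 14 days in the pancreas from implanted cells of MT4, an organoid line of the KPC model of pancreatic cancer. Each genotype gave 1 library on the 10X Genomics Chromium platform, from live cells of the tumors of 3 mice pooled together. The Cre is driven from the LysM locus, which is active mainly in cells of the myeloid lineage, and the tumor cells were implanted, so neither they nor the lymphocytes were its main target. With 1 pooled library per genotype there is no replicate, no spread between animals and no test of any difference between the genotypes.

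Arginine feeds competing routes in myeloid cells. Slc7a2 encodes CAT2, a carrier of cationic amino acids that brings arginine into the cell. Arg1 encodes arginase 1, which splits arginine into ornithine and urea, and in mouse macrophages it is a classic gene of IL-4-driven alternative activation and of tumor macrophages. Nos2 encodes the inducible nitric oxide synthase, which turns arginine into nitric oxide and citrulline and is a classic gene of the response to interferon-gamma and LPS. Ass1 encodes argininosuccinate synthase, which joins citrulline to aspartate in the first step of remaking arginine. In the GRCm38.p6 annotation of RefSeq, Arg1 lies at chr10:24915207-24927470, Nos2 at chr11:78920787-78960226, Slc7a2 at chr8:40862341-40922070 and Ass1 at chr2:31470270-31520670.

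Ass1 was the 1 member with a promoter in the RefSeq table of the same build. The 250 bases before its start, chr2:31470020-31470269 on the plus strand, are shown because they hold the core letters bound by the Ahr-Arnt pair (GCGTG) and by hypoxia-inducible factors (ACGTG), and Ahr and hypoxia genes both enter the comparisons that follow. Capitals mark a match on either strand.
Ass1: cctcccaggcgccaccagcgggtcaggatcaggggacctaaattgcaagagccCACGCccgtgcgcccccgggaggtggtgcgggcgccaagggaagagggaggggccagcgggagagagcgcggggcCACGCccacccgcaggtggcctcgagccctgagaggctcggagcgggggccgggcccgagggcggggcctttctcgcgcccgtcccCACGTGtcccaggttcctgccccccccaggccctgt
The first motif occurred 2 times, both on the minus strand, and the second occurred once on each strand at a single place, where its copies overlap. The first was present in 28.2% and the second in 16.6% of all 32851 promoter windows of that length in the table, so matches of this kind are common and are given as a description of the letters.

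The files held 4577 Ahr cKO cells and 5196 fl/fl cells. The deposited scaled values of the fl/fl library could be turned back into whole counts of unique molecular identifiers (UMIs, 1 per captured RNA molecule): 99.99% of 791198 values above zero and below the cap were whole within 0.002, and all such values of the 4 members were. Depth per cell could therefore be read as well, relative to the median fl/fl cell, and its 5th and 95th percentiles in fl/fl cells were 0.277 and 7.47. Cells fell into 23 clusters, drawn without the 4 members and the arginine pathway list, of which 16 took 1 of 12 class names from marker genes and 7 stayed unnamed. A median over genes of 55.7% of Ahr cKO cells lay at the gene's zero level and 15.3% lay below it, so the values of that library had been moved and its UMI shares can only be estimated. The targeted gene Ahr was detected in an estimated 11.3% of Ahr cKO Macrophage-like cells (95% interval 8.23 to 15.01%) and in 17.8% of fl/fl ones (14.8 to 21.2%). The limit for reading such estimates, given later, was not worked out for Ahr, so no difference in its share is read. The mean deposited value of Ahr there was 0.208 in Ahr cKO and 0.101 in fl/fl cells, a difference of 0.11. It became -0.10 once the movement of the Ahr cKO values was taken off. A tag of the 10X assay need not lie in the deleted part of the gene, and which exons were flanked is not given in the sources used here, so this is no check of the deletion.

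The 2 libraries shared 656 cell barcodes, 14.3% of the Ahr cKO cells and 12.6% of the fl/fl cells, and 629 of these fell into the same class in both. They sat in few places: 339 of 341 Ahr cKO cells and 334 of 354 fl/fl cells of cluster 0, a cluster without a class name led by Vim, Atf3, Ccl2 and Cd14, and 233 of 361 Ahr cKO and 235 of 392 fl/fl Monocyte-like cells. The estimated depth of the Ahr cKO copy was 0.522 of the fl/fl copy (median over pairs, 5th to 95th percentile 0.435 to 0.658). Arg1 was called in 105 of the Ahr cKO copies and 111 of the fl/fl copies, and in both copies of 89 barcodes. The genotype of these cells is thus not settled by the files, and no difference between the genotypes is reported for cluster 0. In Macrophage-like cells 8 Ahr cKO and 11 fl/fl cells had a shared barcode.

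Arg1 was mainly a gene of macrophages. It was detected in 356 of 572 fl/fl Macrophage-like cells, 62.2% (95% Clopper-Pearson interval 58.1 to 66.2%). The median was 9 UMIs in the cells that had it, and the highest recovered count was 184. In 3 of these cells the value was at the cap, where the count is a lower bound. These cells held 58.7% of all fl/fl cells with Arg1 and 87.7% of its 10456 UMIs. Per cell of median depth, the level was 7.08 UMIs (Poisson interval 6.93 to 7.22) in Macrophage-like cells and 1.25 UMIs (1.17 to 1.33) in cluster 0, where 31.6% of cells had it (26.8 to 36.8%). Intervals of this kind cover counting error in 1 library, not the variation between mice. Poisson intervals, and the counting intervals of ratios given later, treat UMIs as independent and so leave out the spread between cells as well.

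Outside these groups Arg1 was sparse. Cluster 13, which stayed unnamed and was led by hemoglobin and collagen genes, had Arg1 in 17 of 104 cells, 16.3% (9.82 to 24.9%), but at a level of 0.0928 UMIs per cell of median depth. Tumor epithelial-like cells, named from keratins, had it in 5.47% of 768 cells (3.97 to 7.32%). The lymphoid classes, which are not known as Arg1 producers in mice, had it in 2.67% of T cell-like, 3.68% of NK-like and 1.46% of B-lineage-like cells at median depths of 1.33, 1.14 and 1.10. Shares in that range are read as background, whose source was not tested. The DC-like share of 2.98% (0.973 to 6.81%), the cluster 7 share of 2.74% (0.751 to 6.87%), the Neutrophil-like share of 1.78% (0.580 to 4.10%), the Immature neutrophil-like share of 1.52% (0.495 to 3.51%) and the cluster 4 share of 3.48% (1.86 to 5.87%) lay there. The Granulocyte progenitor-like share was 1.22% (0.148 to 4.34%), and no Plasma cell-like cell of 43 and no Erythroid-like cell of 35 had a UMI, which allows shares of up to 6.98% and 8.57%. Monocyte-like cells had Arg1 in 2.55% (1.23 to 4.64%), but in 5.10% when cells with a shared barcode were left out, so their share is not read. By share, Macrophage-like cells stood above cluster 0 and cluster 0 above cluster 13, with intervals apart. The place of cluster 0 goes by the deposited label, since 334 of its 354 fl/fl cells had a shared barcode. Cluster 13 lay above the Tumor epithelial-like class, which lay above the B-lineage-like and Immature neutrophil-like classes. Cluster 3, led by Cst3 and Plet1, had 4 of 65 cells, 6.15% (1.70 to 15.01%), and its interval met those of cluster 13 and of most lower classes.

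**Figure D1:**
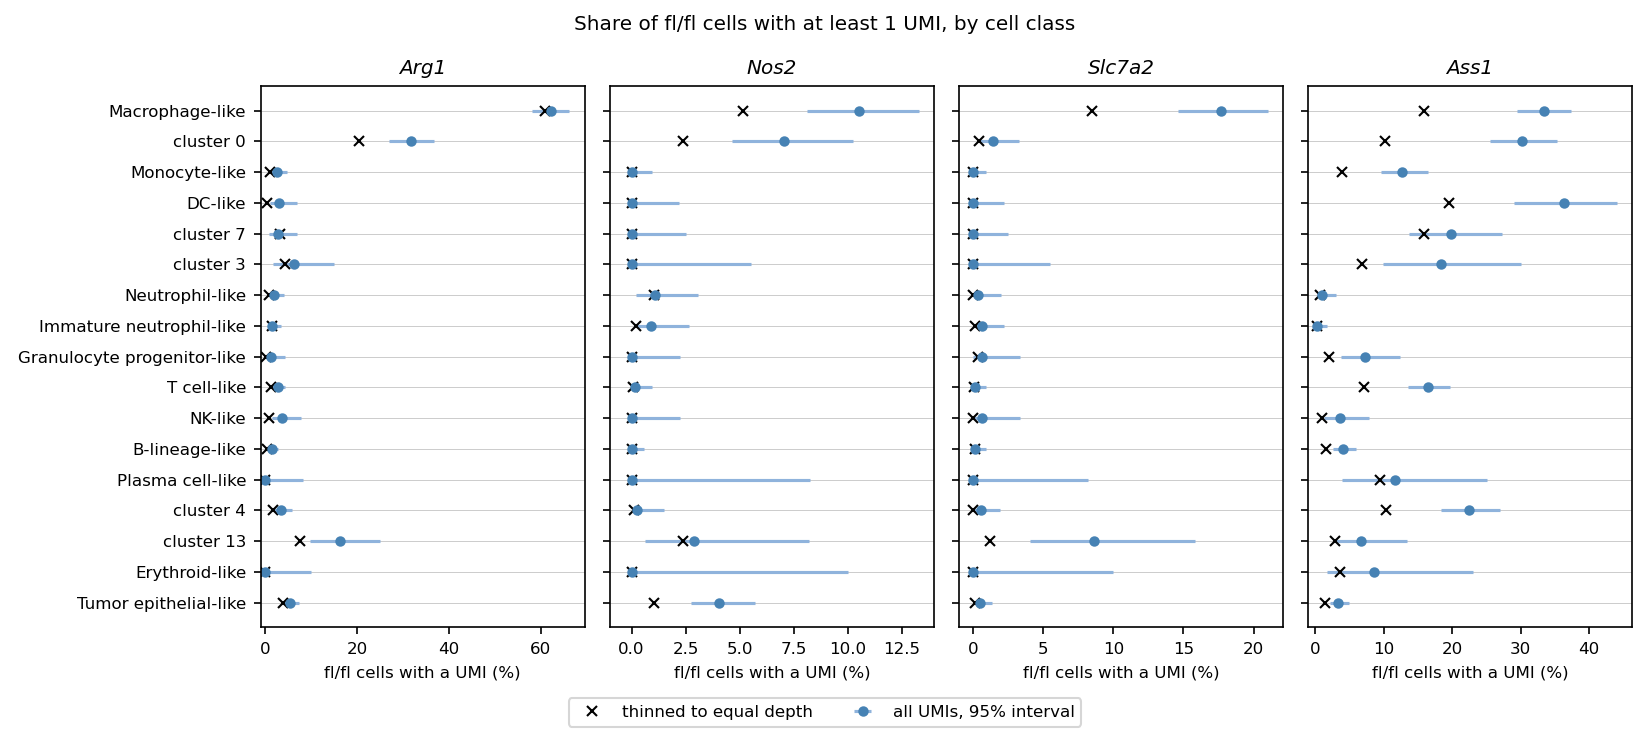
Share of fl/fl cells with at least 1 UMI of each gene (x axis, percent, a separate scale per gene) in each cell class (y axis); blue points are all UMIs with exact 95% binomial intervals, and crosses are expected shares after thinning every cell to 0.5 of the median depth. Arg1 and Slc7a2 stand out in Macrophage-like cells (62.2% and 17.7%), whereas Ass1 was spread over macrophage, dendritic, T cell-like and cycling cells.

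Slc7a2, the arginine carrier, was the member most concentrated in macrophages by share of cells. It was found in 101 of 572 fl/fl Macrophage-like cells, 17.7% (14.6 to 21.0%), which made up 78.3% of all fl/fl cells with Slc7a2 and 85.5% of its 325 UMIs. Cells that had it carried a median of 2 UMIs, and the highest recovered count was 15. In 16 of them the value was at the cap, where the count is a lower bound, so the UMI sums and levels of Slc7a2 are lower bounds too. Cluster 13 was second, with 9 of 104 cells, 8.65% (4.03 to 15.8%). In cluster 0, the class with the second highest Arg1 share, Slc7a2 reached 1.41% (0.460 to 3.27%), and its level of 0.0103 UMIs per cell of median depth compared with 0.214 in Macrophage-like cells. No DC-like cell of 168 and no Monocyte-like cell of 392 had a UMI, which allows shares of up to 1.79% and 0.765%. In the T cell-like, NK-like, B-lineage-like, cluster 4, Tumor epithelial-like and granulocyte classes the share lay between 0.162% and 0.614%, on 1 to 4 cells each. Cluster 7, cluster 3, Plasma cell-like and Erythroid-like cells had none, with upper limits of 2.05%, 4.62%, 6.98% and 8.57%.

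Nos2 was found in fewer cells, most of them Macrophage-like, Tumor epithelial-like or of cluster 0. In fl/fl Macrophage-like cells 60 of 572 had it, 10.5% (8.10 to 13.3%), with a median of 1 UMI and a highest recovered count of 12. In 15 of these 60 cells the value was at the cap, so the UMI sums and levels of Nos2 are lower bounds. Cluster 0 had it in 25 of 354 cells, 7.06% (4.62 to 10.2%). Tumor epithelial-like cells held 31 of the 127 fl/fl cells with Nos2 and 25.2% of its 274 UMIs, with a share of 4.04% (2.76 to 5.68%). Thinned to 0.5 of the median depth, that share was 1.05%, near the 1.02% of Neutrophil-like cells and under the 2.39% of cluster 13. The Nos2-bearing tumor cells were 29 of 513 cells of cluster 1, led by Krt8, Krt19 and Krt18, and 2 of 255 cells of cluster 2, which was of lower depth (medians 1.28 and 0.397). No UMI was seen in 392 Monocyte-like, 168 DC-like, 163 NK-like or 617 B-lineage-like cells, which allows shares of up to 0.765%, 1.79%, 1.84% and 0.486%. None was seen in cluster 7, cluster 3, Granulocyte progenitor-like, Plasma cell-like or Erythroid-like cells either, with upper limits of 2.05%, 4.62%, 1.83%, 6.98% and 8.57%. Of 600 T cell-like and 374 cluster 4 cells 1 each had it, and 3 each of the Neutrophil-like, Immature neutrophil-like and cluster 13 cells, at 1.07%, 0.912% and 2.88%.

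Ass1 had the widest spread over cell types. The highest shares were in DC-like cells, with 61 of 168, 36.3% (29.0 to 44.1%), in Macrophage-like cells, with 191 of 572, 33.4% (29.5 to 37.4%), and in cluster 0, with 107 of 354, 30.2% (25.5 to 35.3%), and these intervals overlapped. Cluster 4, led by the cycling genes Stmn1 and Pclaf, followed with 22.5% (18.3 to 27.0%), cluster 7, led by Cd209a, with 19.9% (13.7 to 27.3%), cluster 3 with 18.5% (9.92 to 30.03%) and T cell-like cells with 16.5% (13.6 to 19.7%). Ass1 was in 12.8% of Monocyte-like cells (9.62 to 16.5%), 11.6% of Plasma cell-like cells (3.89 to 25.1%) and 8.57% of Erythroid-like cells (1.80 to 23.1%). Granulocyte progenitor-like cells had it in 7.32% (3.84 to 12.4%), cluster 13 in 6.73% (2.75 to 13.4%), B-lineage-like cells in 4.05% (2.64 to 5.92%), NK-like cells in 3.68% (1.36 to 7.84%) and Tumor epithelial-like cells in 3.39% (2.22 to 4.92%). In this order, from the highest share to the lowest, the intervals of each class and the next overlapped. Both neutrophil classes were nearly empty of it: 3 of 281 Neutrophil-like and 1 of 329 Immature neutrophil-like cells had a UMI. Macrophage-like cells held 34.6% of the 1519 Ass1 UMIs, against 87.7% of the Arg1 UMIs.

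Within the DC-like class, the Poisson intervals of the Ass1 level stood apart between subclusters, while the intervals of the shares overlapped. In the subcluster led by Fscn1, Cacnb3 and Ccr7, genes of mature migratory dendritic cells, 52.0% of 50 fl/fl cells had Ass1 (37.4 to 66.3%), at 0.898 UMIs per cell of median depth (0.730 to 1.09). In the subcluster led by Cst3, Plet1 and H2-Ab1, genes of antigen-presenting conventional dendritic cells, 29.9% of 117 cells had it (21.8 to 39.1%), at 0.251 UMIs (0.196 to 0.317). The 2 subclusters had like depth, with medians of 0.885 and 0.864.

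Depth shaped these shares more for the sparse genes than for Arg1. When each fl/fl cell was thinned to 0.5 of the median depth and shallower cells were left out, the Macrophage-like share was 61.0% for Arg1, 5.17% for Nos2, 8.50% for Slc7a2 and 15.97% for Ass1, and the Macrophage-like class stayed above T cell-like and Tumor epithelial-like cells for all 4 genes. At that depth Ass1 was in 19.6% of DC-like and 7.15% of T cell-like cells. Arg1 in cluster 0 came to 20.5%.

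**Figure D2:**
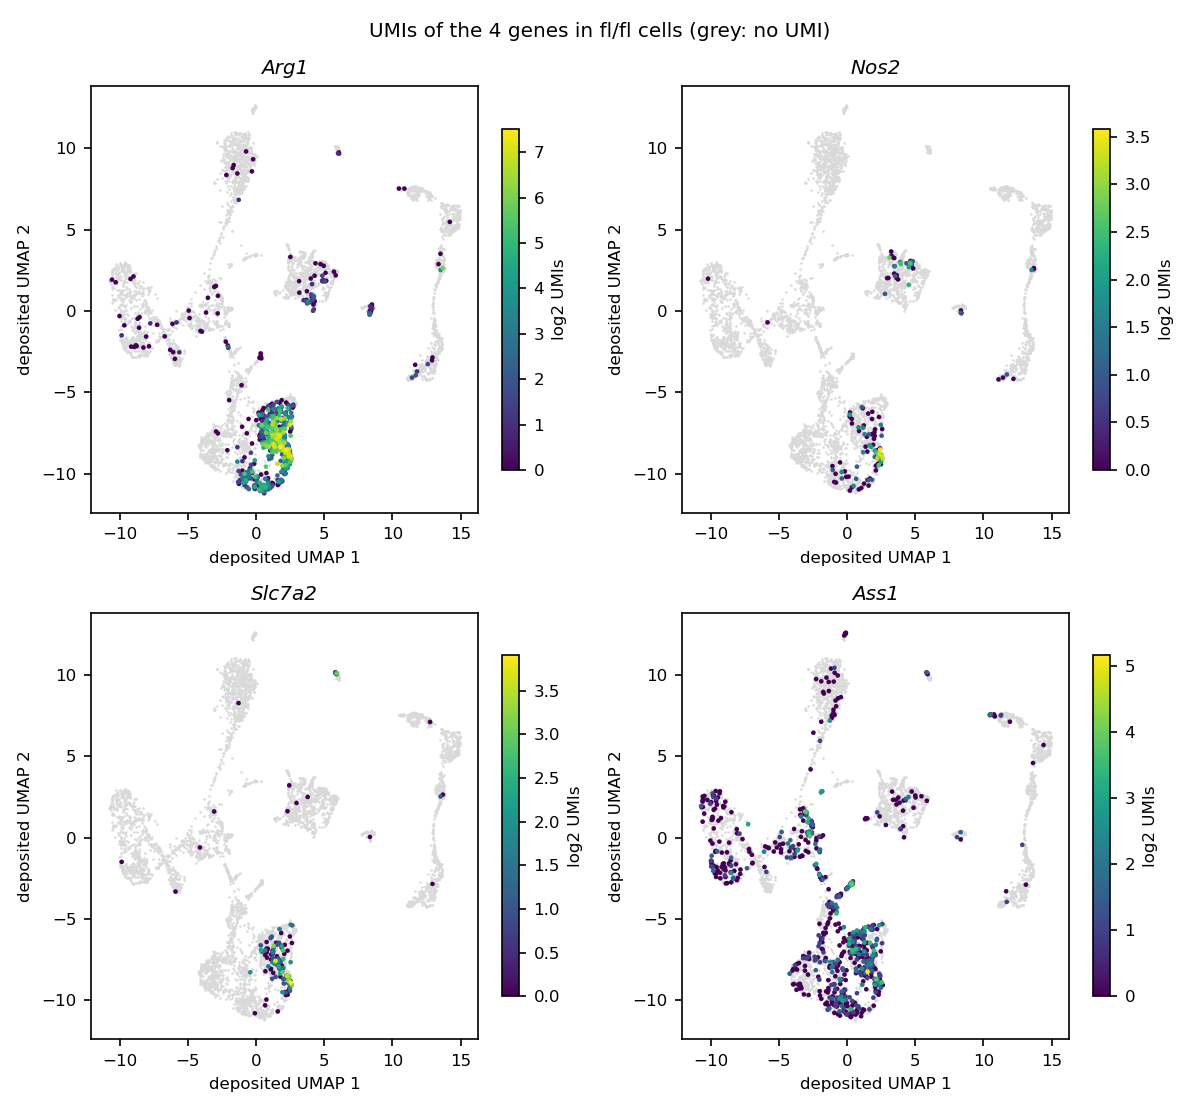
The deposited UMAP coordinates of fl/fl cells (axes in arbitrary units), coloured by log2 of the recovered UMI count of each gene, with cells without a UMI in grey. The highest Nos2 and Slc7a2 counts lay at the right edge of the lowest group of cells, where Arg1 counts were high as well, while Ass1 was scattered over many groups of cells.

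Macrophage-like cells were not uniform. Clustered more finely, they held a C1q-rich subcluster, led by C1qa, C1qc, C1qb and Apoe, and an Fn1-rich one, led by Fn1, AA467197, Ccl6 and Tgm2. C1qa, a subunit of the complement starter C1q, was detected in 93.8% of the 227 fl/fl cells of the C1q-rich subcluster and 59.5% of the 247 of the Fn1-rich one. Arg1 went the other way, with 87.9% of Fn1-rich cells (83.1 to 91.7%) and 46.3% of C1q-rich cells (39.6 to 53.0%), at levels of 12.4 and 2.60 UMIs per cell of median depth.

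Slc7a2 and Nos2 followed Arg1 between these subclusters, and Ass1 did not. Slc7a2 was in 29.96% of Fn1-rich cells (24.3 to 36.1%) and 11.01% of C1q-rich cells (7.26 to 15.8%). Nos2 was in 17.4% (12.9 to 22.7%) and 6.17% (3.41 to 10.1%). Ass1 was in 36.8% (30.8 to 43.2%) and 33.9% (27.8 to 40.5%), with overlapping intervals. At equal depth the shares of Fn1-rich and C1q-rich cells were 88.4% and 37.6% for Arg1, 14.7% and 3.96% for Slc7a2, 8.64% and 2.40% for Nos2, and 16.97% and 15.2% for Ass1. Another subcluster of 58 fl/fl cells, led by Ly6i, Aif1 and the interferon-gamma target Cxcl9, had Arg1 in 8.62% (2.86 to 18.98%) and Ass1 in 29.3% (18.1 to 42.7%).

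Most macrophages with Nos2 or Slc7a2 also had Arg1, although Arg1 and Nos2 are often taken as opposite activation markers. Of 60 fl/fl Macrophage-like cells with Nos2, 55 had Arg1, 91.7% (81.6 to 97.2%), against 301 of 512 cells without Nos2, 58.8% (54.4 to 63.1%). Of 101 cells with Slc7a2, 92 had Arg1, 91.1% (83.8 to 95.8%), against 264 of 471 without, 56.1% (51.4 to 60.6%). Nos2 was in 28 of 101 cells with Slc7a2, 27.7% (19.3 to 37.5%), and in 32 of 471 without it, 6.79% (4.69 to 9.46%). Of the 356 Macrophage-like cells with Arg1, 15.4% had Nos2 and 25.8% had Slc7a2. The Fn1-rich subcluster held 43 of the 60 cells with Nos2 and 74 of the 101 with Slc7a2. Pairs of genes were not compared within subclusters. All 4 genes were seen together in 16 Macrophage-like cells and none of them in 141.

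Cells with a sparse gene were also deeper, with a median depth of 3.1 in cells with Nos2 and 0.847 in cells without. Among Macrophage-like cells above the class's median depth, Nos2 was in 44 of 208 cells with Arg1, 21.2% (15.8 to 27.3%), and in 5 of 78 without, 6.41% (2.11 to 14.3%). Slc7a2 was in 38.5% (31.8 to 45.4%) and 7.69% (2.88 to 15.99%) of the same cells. Ass1 showed no such link there: it was in 52.9% of the deeper cells with Arg1 (45.9 to 59.8%) and 56.4% of those without (44.7 to 67.6%). In cluster 0, 14 of 25 cells with Nos2 had Arg1, 56.0% (34.9 to 75.6%), against 98 of 329 without Nos2, 29.8% (24.9 to 35.0%), and the intervals overlapped by a narrow margin.

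**Figure D3:**
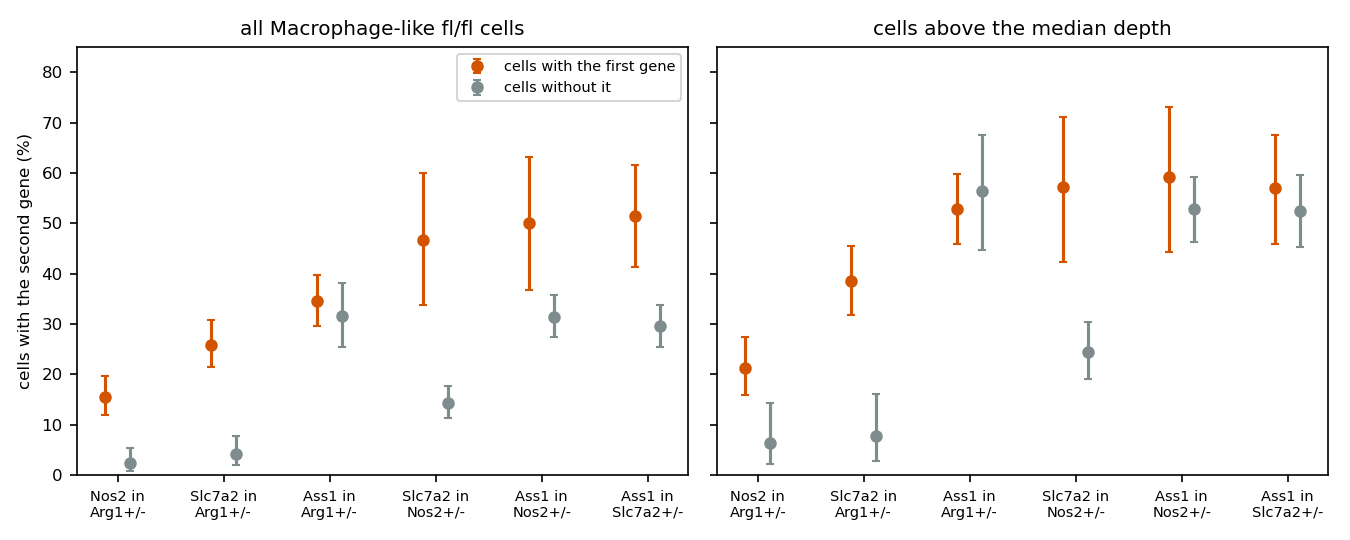
Share of fl/fl Macrophage-like cells with the second gene of each pair (y axis, percent), for cells with the first gene (orange) and without it (grey), over all cells (left) and over cells above the class's median depth (right); bars are exact 95% binomial intervals. In both panels the intervals of cells with and without Arg1 stand apart for Nos2 and Slc7a2 and overlap for Ass1, and the higher Ass1 shares beside Nos2 and Slc7a2 on the left overlap in the deeper cells.

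Cells with and without Arg1 also differed in other genes, compared as summed UMIs per summed depth in the 356 fl/fl Macrophage-like cells with Arg1 and the 216 without. A gene was counted as higher or lower from 1.5-fold; of 810 genes with at least 20 UMIs in all and 1 or more in both groups, 27.0% were higher and 19.9% lower. All 10 tested genes of a list of 12 hypoxia and glycolysis genes were higher in cells with Arg1, with a median log2 ratio of 1.93 against 0.02 over all genes. Adm had its 29 UMIs all in cells with Arg1, so it has no ratio. Hilpda, which restrains lipid breakdown, had a log2 ratio of 3.37 (counting interval 2.81 to 4.0), Egln3, a prolyl hydroxylase that marks hypoxia-inducible factors for decay, 3.25 (2.45 to 4.18), and Ndrg1, a stress-response gene, 2.54 (1.95 to 3.19). The glycolysis genes Pgk1 and Ldha were closer, at 1.52 (1.36 to 1.68) and 0.78 (0.65 to 0.92). Among cells above the median depth, where 28.6% of 805 genes were higher and 20.6% lower, all 10 tested list genes were again higher. Cells with Arg1 had a median depth of 1.66 and those without 0.567, so the part of depth in the whole-class ratios was measured only by that subset.

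Listed genes of macrophage activation went both ways with Arg1. Their counts are small and stand beside 27.0% higher and 19.9% lower over all 810 genes. Of 10 tested alternative activation genes 5 were higher and 2 lower in cells with Arg1. The eosinophil chemokine Ccl24 had a log2 ratio of 3.81 (3.1 to 4.63) and the lectin Mgl2 -2.10 (-2.52 to -1.69). The angiogenic factor Vegfa had 2.45 (1.87 to 3.08), and it is also 1 of the hypoxia and glycolysis genes counted above. Ccl17, a chemokine of alternative activation, had 1 UMI in cells with Arg1 and 31 in cells without. Of 12 tested interferon-gamma and LPS response genes 3 were higher and 4 lower. The T cell chemokines Cxcl10 and Cxcl9 had log2 ratios of -1.57 (-1.79 to -1.35) and -1.18 (-1.28 to -1.08), and Ptgs2, the inducible cyclooxygenase, had 2.01 (1.27 to 2.85).

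**Figure D4:**
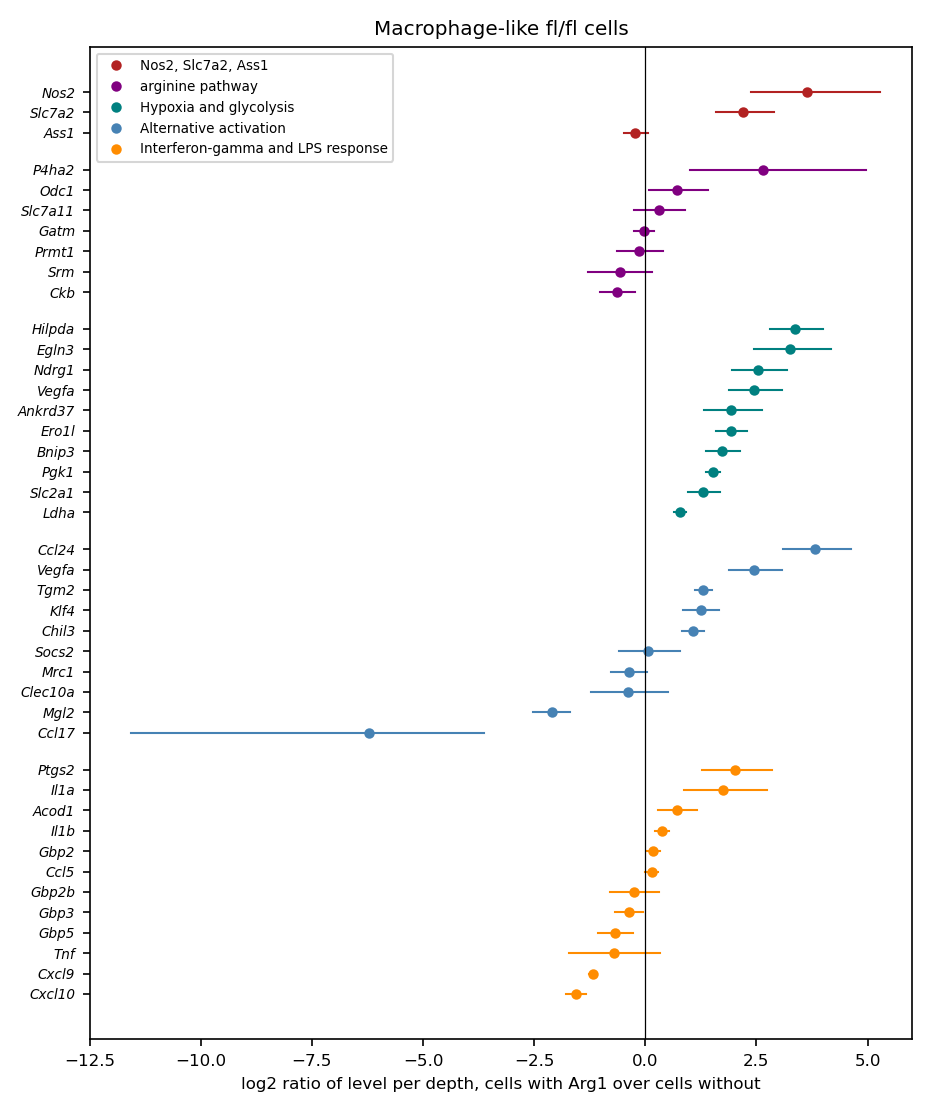
Log2 ratio of UMIs per depth in fl/fl Macrophage-like cells with Arg1 over cells without (x axis), per gene (y axis) of each list, with 95% counting intervals as lines. All 10 hypoxia and glycolysis genes lie right of zero, Nos2 and Slc7a2 lie to the right at 3.64 and 2.21, and Cxcl9 and Cxcl10 lie to the left.

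Cells with Nos2 shared the hypoxia pattern, and 55 of these 60 cells also had Arg1. List genes were not compared within cells with Arg1 or within subclusters, so a link with Nos2 apart from Arg1 was not tested. All 11 tested genes of the hypoxia and glycolysis list were higher in the 60 cells with Nos2, where 20.6% of 809 genes were higher and 27.7% lower, with a median log2 ratio of 1.72, and Adm, which encodes the vessel-dilating peptide adrenomedullin, reached 2.72 (1.57 to 3.90) on 16 and 13 UMIs. Of the interferon-gamma and LPS list, 4 of 12 were higher, led by the chemokine Ccl5 at 1.73 (1.59 to 1.86) and by Acod1, which makes itaconate, at 1.21 (0.82 to 1.59). Cxcl9 was closer, at 0.39 (0.27 to 0.52). The guanylate-binding proteins Gbp2b and Gbp3 were the 2 lower ones, at -1.01 (-2.06 to -0.12) and -0.96 (-1.52 to -0.44).

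In the 101 cells with Slc7a2, 9 of 11 tested hypoxia and glycolysis genes were higher, where 19.9% of 813 genes were higher and 12.7% lower. Of these 101 cells 92 also had Arg1, and a link with Slc7a2 apart from Arg1 was not tested. Egln3 had a log2 ratio of 2.02 (1.68 to 2.37), and Ankrd37, a target of hypoxia-inducible factor, one of -0.09 (-0.52 to 0.33).

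In cells with Ass1 the hypoxia list did not show these ratios. In the 191 Macrophage-like cells with Ass1 none of the 11 tested hypoxia and glycolysis genes was higher and 1, Adm, was lower on 11 and 18 UMIs, where 8.85% of 814 genes were higher and 12.0% lower. The Nos2 level per depth was higher in these cells, with a log2 ratio of 0.93 (0.43 to 1.46). Arg1 had -0.15 (-0.21 to -0.09) and Slc7a2 0.26 (-0.10 to 0.62). Cells with Ass1 had a median depth of 3.75 and those without 0.555. Above the class's median depth the Nos2 ratio was 1.05, but the shares of cells with Nos2 overlapped. They were 18.8% with Ass1 (12.99 to 25.9%) and 15.2% without (9.51 to 22.4%). At equal depth the Nos2 shares over the whole class were 5.69% and 4.73%. The interferon-gamma and LPS list had 2 higher genes of 12, Cxcl10 at 0.79 (0.56 to 1.03) and Cxcl9 at 0.72 (0.61 to 0.82), the same pair that was lower in cells with Arg1. Of 10 alternative activation genes 1 was higher and 1 lower: Ccl17 at 0.83 (-0.31 to 2.07), on 22 and 10 UMIs, and the mannose receptor Mrc1 at -1.07 (-1.47 to -0.69).

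Other genes of arginine metabolism had their highest shares in different classes. Of 61 listed genes 11 were among the 2000. In fl/fl cells, Gatm, which takes arginine into creatine synthesis, was in 45.3% of Macrophage-like cells (41.1 to 49.5%), its highest share of any class; per depth its level was highest in Granulocyte progenitor-like cells. Odc1, which turns ornithine into putrescine, was highest in Erythroid-like cells, at 57.1% of 35, and the cystine carrier Slc7a11 in Neutrophil-like cells, at 30.6%. Slc7a1, another carrier of cationic amino acids, was highest in Tumor epithelial-like cells, at 15.2%, against 2.97% of Macrophage-like cells. Prmt1, an arginine methyltransferase, was highest in the cycling cluster 4, at 37.7%, against 20.3% of Macrophage-like cells, and Padi4, which citrullinates histones in neutrophils, in Immature neutrophil-like cells, at 28.0%. The brain-type creatine kinase Ckb was in 55.4% of cluster 3, led by Cst3 and Plet1, and 21.3% of Macrophage-like cells. Srm, the spermidine synthase, was in 20.2% and Ddah2, of a family that breaks down methylarginines, in 16.3% of cluster 13, while Ddah1, of the same family, and P4ha2, a collagen prolyl hydroxylase, were highest in Tumor epithelial-like cells, at 3.65% and 14.2%.

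Of the 7 pathway genes with enough UMIs, 2 were higher and 1 lower in Macrophage-like cells with Arg1, near the 27.0% and 19.9% of all genes. P4ha2 had 45 UMIs in cells with Arg1 and 3 in cells without, a log2 ratio of 2.64 (1.00 to 4.97). Odc1, which uses the ornithine that arginase makes, had 0.72 (0.09 to 1.40), and Ckb -0.63 (-1.03 to -0.22). Among cells above the median depth the same comparison gave Ckb -0.54, short of 1.5-fold, and 0 of the 7 genes were lower.

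Over the 23 clusters, the mean fl/fl value of Arg1 was most like that of C1qc, C1qa, C1qb, Ccl24 and Ms4a7, with Pearson's r between 0.959 and 0.985. The search covered the 1601 genes with a UMI in 1% or more of the fl/fl cells. Slc7a2 was most like C1qb, Ms4a7, Gbp2b, Arg1 and Fcgr4 (r from 0.879 to 0.921), and Nos2 like Fn1, Ccl24, Rai14, Arg1 and Pf4 (r from 0.885 to 0.897). Ass1 was most like Bcl2a1b, Cxcl16, Aif1, Bcl2a1d and Batf3 (r from 0.709 to 0.826), and its r with Arg1 was 0.490. These clusters come from 1 library and share its depth, so the r values are a description only. Among the 23, all Macrophage-like cells formed a single cluster. At finer resolution 1 of the 5 genes named for Arg1, 3 for Nos2, 1 for Slc7a2 and 2 for Ass1 were named again. For Arg1 the genes C1qc, C1qa, C1qb and Ms4a7 were then lost, and the 5 were Slc7a2, Fn1, Sdc3, Rai14 and Ccl24. The likeness to C1q genes thus holds between cell types and not among the macrophage subclusters.

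Between the genotypes, the deposited means of 3 members were higher and 1 was lower in Macrophage-like cells of the Ahr cKO library. The scale is that of the deposited score, and a difference was counted from 0.1; by that rule 8.20% of all 2000 genes were higher and 3.65% lower in these cells. Arg1 averaged 2.00 ± 2.55 in 363 Ahr cKO cells and 1.58 ± 2.27 in 572 fl/fl cells (SD over cells, 1 library each), a difference of 0.42. For Slc7a2 the means were 1.18 ± 2.53 in Ahr cKO cells and 0.694 ± 2.21 in fl/fl cells, a difference of 0.48, and for Nos2 they were 0.578 ± 2.07 and 0.438 ± 1.98, a difference of 0.14. Ass1 averaged 0.264 ± 1.56 in Ahr cKO cells and 0.475 ± 1.64 in fl/fl cells, a difference of -0.21. The members ranked 14 (Arg1), 7 (Slc7a2), 110 (Nos2) and 1987 (Ass1) from the highest of the 2000 differences. The SD over cells was larger than each difference.

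The higher values of Nos2 and Slc7a2 did not hold once the movement of the Ahr cKO values was taken off. Subtracting a local zero level in 2 forms left 0.06 and 0.01 for Nos2 and 0.05 and -0.08 for Slc7a2, all under 0.1, and left -0.18 and -0.19 for Ass1. With classes drawn from the deposited UMAP the Ass1 difference was -0.05, under 0.1. By the first form 11.8% of 1877 genes were higher and 1.49% lower. For Arg1 no such estimate is given, since it was detected in over 40% of fl/fl Macrophage-like cells and the local zero level could not be read there. Its difference was 0.04 at finer clustering and 0.05 with classes drawn from the deposited UMAP. These classes held fewer of the cells: 179 Ahr cKO and 245 fl/fl cells at finer clustering, 274 and 374 from the UMAP. The class at finer clustering did not hold the Fn1-rich subcluster, so its values are not those of the same macrophages.

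The deposited differences were larger in the Fn1-rich subcluster, with 169 Ahr cKO and 247 fl/fl cells, than in the C1q-rich one, with 167 and 227. Arg1 averaged 3.55 in Ahr cKO and 2.94 in fl/fl cells of the Fn1-rich subcluster, a difference of 0.61, and 0.527 and 0.584 in the C1q-rich one, a difference of -0.06. The Slc7a2 differences were 0.83 in the Fn1-rich and 0.08 in the C1q-rich subcluster, those of Nos2 0.26 and -0.05, and those of Ass1 -0.41 and -0.12. Fn1 itself averaged 3.47 in Ahr cKO and 2.67 in fl/fl cells of the Fn1-rich subcluster, and its part in these values was not tested. The correction was not taken off within subclusters and the contrast between them was not tested, so no direction is read for Arg1.

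Whole counts could also be estimated for the Ahr cKO cells, and values are read only where at least 10 cells were called at 1 to 3 UMIs and at least 75% of those lay within 0.25 of a whole count, of which chance alone would give 50%. Ass1 passed in Macrophage-like cells, with 76.6% of 77 such cells. It was called in 98 of 363 Ahr cKO cells, 27.0% (22.5 to 31.9%), against 191 of 572 fl/fl cells, 33.4% (29.5 to 37.4%), and the intervals overlapped. The median depth of these cells was 1.21 in the Ahr cKO and 1.02 in the fl/fl library, and thinned to equal depth the shares were 13.6% and 15.97%. A difference of at least 5 points at equal depth was seen for 2.76% of 797 genes toward higher and 1.38% toward lower in Ahr cKO cells, and Ass1 was not among them. Nos2 and Slc7a2 did not pass, with 45.0% of 40 and 47.7% of 44 called cells near a whole count, and Arg1 had an estimate in 56.5% of cells only.

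Outside macrophages, the largest deposited difference of a member was that of Ass1 in DC-like cells. Its mean there was higher, 0.973 ± 2.13 in 117 Ahr cKO cells and 0.600 ± 1.73 in 168 fl/fl cells, a difference of 0.37 that ranked 29 from the highest of 2000 genes, where 9.30% of genes were higher and 8.40% lower, and of 0.20 and 0.31 with the correction removed. The Ahr cKO DC-like cells were deeper, with a median of 1.66 against 0.876 in fl/fl cells. The called Ass1 share was 38.5% (29.6 to 47.9%) in Ahr cKO and 36.3% (29.0 to 44.1%) in fl/fl cells, and at equal depth 19.7% and 19.6%. Its near-whole share there was 72.7%, just under the limit for reading.

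T cell-like cells gave the fullest comparison for Ass1, with 89.2% of 130 called cells near a whole count. Ass1 was called in 131 of 768 Ahr cKO cells, 17.1% (14.5 to 19.9%), and 99 of 600 fl/fl cells, 16.5% (13.6 to 19.7%), and at equal depth in 8.30% and 7.15%. The deposited difference was -0.02, and 0.11 and 0.06 with the correction removed, where by the first form 4.23% of 1914 genes were higher and 1.10% lower. In B-lineage-like cells Ass1 was called in 2.61% of Ahr cKO cells (1.81 to 3.62%) and 4.05% of fl/fl cells (2.64 to 5.92%), and at equal depth in 1.49% and 1.59%. Monocyte-like cells had 9.14% (6.38 to 12.6%) and 12.8% (9.62 to 16.5%), and 3.37% and 4.0% at equal depth, but with most barcodes shared between the libraries.

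Nos2 had a deposited difference of 0.28 in cluster 7, which rested on 2 Ahr cKO cells of 70 with a UMI, against 0 of 146 fl/fl cells. Ass1 had 0.11 there as deposited and 0.04 and 0.00 with the correction removed. In cluster 7, 301 of 2000 genes were higher and 204 lower as deposited. Of these 70 Ahr cKO cells 26 had a barcode shared with the fl/fl library. Arg1 had deposited differences between -0.02 and 0.07 in the compared classes other than Macrophage-like cells, cluster 0 not being compared. Its counts could be read in 3 classes, on few cells. Arg1 was called in 1.43% of Ahr cKO T cell-like cells (0.717 to 2.55%) against 2.67% of fl/fl ones (1.53 to 4.29%), in 0.920% of Ahr cKO B-lineage-like cells (0.476 to 1.60%) against 1.46% of fl/fl ones (0.669 to 2.75%), and in 6.10% of Ahr cKO cells of cluster 4 (3.45 to 9.86%) against 3.48% of fl/fl ones (1.86 to 5.87%). The intervals overlapped in each of the 3. In Tumor epithelial-like cells, where 29.1% of all genes were higher and 12.6% lower, and 13 of 176 Ahr cKO but 255 of 768 fl/fl cells came from cluster 2, the Arg1 difference was 0.02 as deposited and 0.20 and 0.08 with the correction removed, and 61.9% of 42 called cells were near a whole count, so no direction is read.

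**Figure D5:**
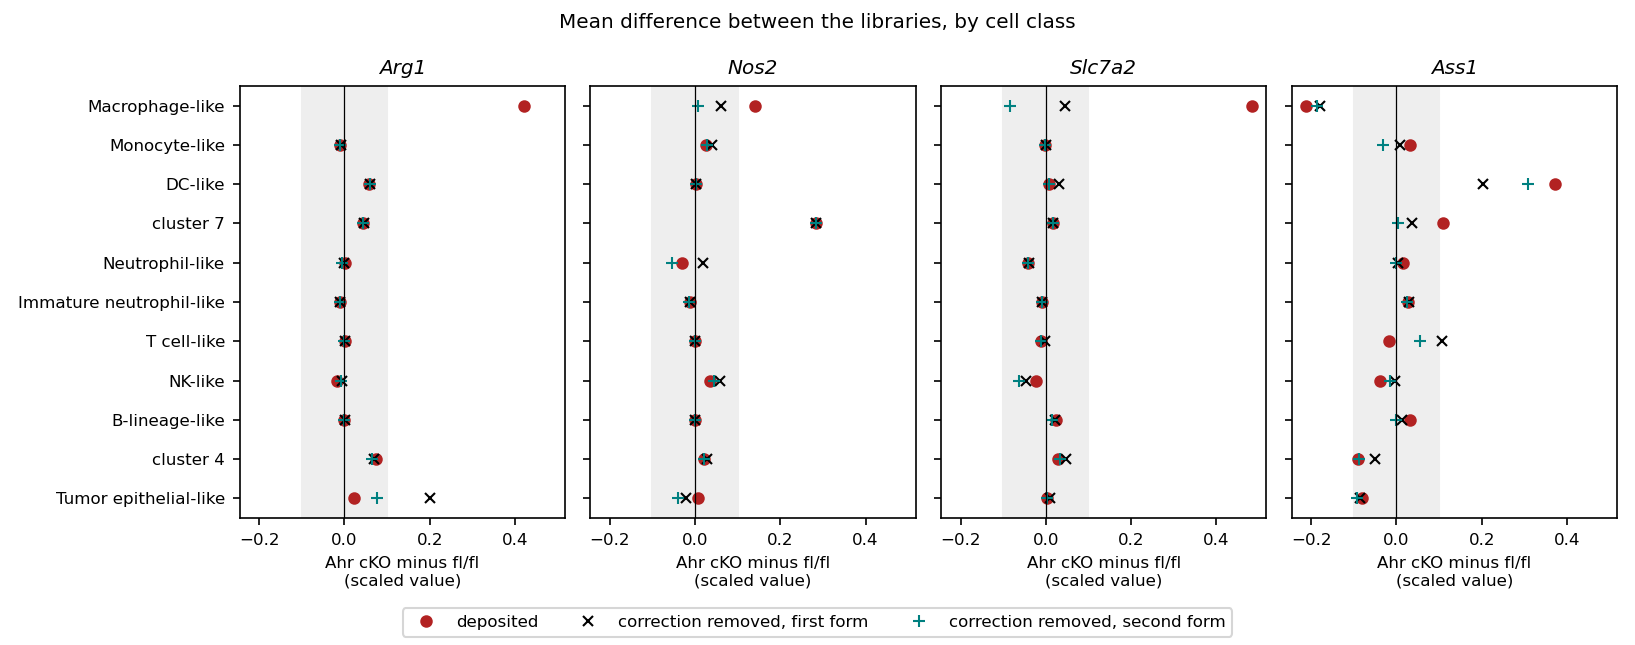
Mean Ahr cKO minus mean fl/fl scaled value (x axis) of each gene in classes with at least 50 cells in each library (y axis); red points are deposited values, and crosses and plus signs are the 2 forms with the correction removed (none for Arg1 in Macrophage-like cells). The grey band marks differences under 0.1; Nos2 and Slc7a2 in Macrophage-like cells leave the band only as deposited, and Ass1 is below it in Macrophage-like and above it in DC-like cells in all 3.

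The other lists in Macrophage-like cells are set beside the shares over all genes, 8.20% higher and 3.65% lower as deposited and 11.8% higher and 1.49% lower by the first form with the correction removed. Among the 11 other arginine pathway genes a single one was higher and none lower as deposited: Gatm, with means of 0.962 in Ahr cKO and 0.792 in fl/fl cells. With the correction removed 2 of 10 were higher and none lower, P4ha2 at 0.18 and Ckb at 0.11.

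The alternative activation list had 4 of 13 genes higher and 0 lower as deposited, led by Mrc1 (0.38), Mgl2 (0.33) and Ccl24 (0.21). With the correction removed 2 of its 12 genes with an estimate were higher, Mrc1 at 0.29 and Mgl2 at 0.16, and Ccl24 had -0.06. Of 14 interferon-gamma and LPS response genes none was higher and 1 was lower as deposited, Il6, a fever-inducing cytokine, at -0.17. With the correction removed Il6 reversed to 0.22, and its whole counts could not be recovered. It was 1 of 3 higher genes of 11 there, with Gbp2b at 0.27 and Il1a at 0.11, while Gbp5 was lower at -0.16. Of 12 hypoxia and glycolysis genes Egln3 (0.24) and Bnip3 (0.12) were higher and Pgk1 (-0.11) lower as deposited. With the correction removed none was higher and 4 of 10 were lower: Ankrd37 at -0.17, Hilpda at -0.13, Ero1l at -0.13 and Slc2a1 at -0.12. The median deposited difference was 0.08 for the alternative activation list and within 0.01 of zero for the other 3 lists and for all genes.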

How the data were processed

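Each gene and cell has a deposited score on a centred scale that reaches below zero, and each cell has 2 deposited UMAP scores. Cell Ranger 3.0.0, Seurat 3.1.4 and mm10/GRCm38 are named, without role, per the submitters' processing notes. How cells were filtered, and whether doublets were taken out, is not given in the sources used here. A correction of the Ahr cKO library toward the fl/fl library was inferred from the values and from a simulated integration; no source states it. The 4 members and the lists were chosen with earlier results of these data known. Barcodes show no culture or animal, so errors cover counting only.

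Cells were assigned to libraries by their name's suffix. Clustering used scanpy 1.11.5 and igraph 0.11.9; neighbours came from scikit-learn 1.9.0 and intervals from scipy 1.17.1. Tables were handled in Python 3.11.15 with pandas 2.3.3 and numpy 2.4.6, and drawn with matplotlib 3.10.9. Clusters came from 30 principal components, 15 neighbours and the Leiden method at resolution 1. A cluster took the class of the highest mean marker difference if that was at least 0.5, the next class was under 0.5 of it, and 3 or more markers were measured. In fl/fl cells, value minus zero level is a whole count times 1 step per cell and gene; values at the cap of 10 give a lower bound. Possible doublets (3 or more markers of each of 2 cell families) were 92 Ahr cKO and 204 fl/fl cells and were kept. Ahr cKO levels were estimated by subtracting the 0.3 quantile over 30 neighbours (first form) or a quantile of 0.5 times the zero share over 50 (second form), and Ahr cKO counts as the value above the level of neighbours without the gene, divided by the cell's step. The procedures were tried on a simulated integration of 2 random parts of the fl/fl library, with 1 part set as the reference. Those parts share genotype and class composition, which the 2 libraries do not. How well the estimates work on the Ahr cKO library itself was therefore not tested. Intervals are exact at 95%, and limits for 0 cells use 3 counts. Named genes were the members, the measured pathway genes, the 5 most alike genes per member and up to 3 per further list; others were named after their values were seen. The count estimates, their limits for reading, the thinning and the removal of shared barcodes were added after the data were seen.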

Additional observations from a re-analysis of the deposited data

How the results depend on the processing

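No paired analysis was possible because each genotype has 1 library and the labels give a single replicate number. The fl/fl share of Macrophage-like cells with Arg1 was 62.2% as reported, 47.8% at resolution 2, 58.0% with clusters from the deposited UMAP and 47.2% when only values at least 1 above zero counted. For Nos2 (10.5%) the shares were 5.71% at resolution 2, 13.9% with UMAP clusters, 6.15% in cells of middle detected gene number and 5.17% at equal depth. Slc7a2 (17.7%) gave 10.2% at resolution 2, 9.23% in cells of middle gene number and 8.50% at equal depth. Ass1 (33.4%) gave 20.8% with only values at least 1 above zero, 21.5% in cells of middle gene number and 15.97% at equal depth.

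The Macrophage-like difference, Ahr cKO minus fl/fl, was 0.42 for Arg1, but 0.0363 at resolution 2 and 0.0473 with UMAP clusters. The Nos2 difference of 0.14 reversed to -0.0467 at resolution 2 and was 0.0961 with UMAP clusters and 0.0599 and 0.00655 with the correction removed. Slc7a2 (0.48) gave 0.0841 at resolution 2, 0.0458 with the first form and reversed to -0.0849 with the second. Ass1 (-0.21) gave -0.11 at resolution 2, -0.0501 with UMAP clusters and -0.13 with subclusters weighted as in fl/fl. The 1 pathway gene called higher was not called at a difference of 0.2 (0 genes). The Macrophage-like class at resolution 2 held 245 of its 572 fl/fl cells and did not hold the Fn1-rich subcluster. Its shares and differences are thus those of a part of the macrophages. Why values changed under the other settings was not tested. Of 362 recomputed differences 342 kept their call, 18 moved and 2 reversed. Most of these differences were under 0.1 as reported, so a kept call mostly meant a small value that stayed small. The Macrophage-like changes listed above are among those that moved or reversed, so the total does not show that the Macrophage-like differences are stable. Of 524 recomputed shares 430 stayed within their interval and 94 moved. Leaving out shared barcodes changed no Macrophage-like value past these limits. Depth limits Nos2, Slc7a2 and Ass1, whose cells with a UMI held a median of 1, 2 and 2 in Macrophage-like cells.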
